A study of Mus musculus with 4 samples.

Results

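Ribosome footprints were examined on 37 genes that encode the core translation machinery outside the ribosome. They comprised 13 eIF3 subunits, 9 eIF4 factors, 6 other initiation factors, 6 elongation factors and 3 termination and recycling factors. The members were listed by gene symbol for their function, and 36 of them were among the 14984 genes of the deposited table. Eif3j1, which encodes a loosely bound eIF3 subunit, was not analysed here. The libraries came from whole testes of mice at day 10: 2 from Eif5 conditional knockouts (Eif5 cKO, Eif5 fl/fl mice crossed with Stra8-Cre mice) and 2 from controls. Stra8-Cre is active in male germ cells, so somatic cells of the testis keep Eif5 by design. Which floxed or Cre alleles the controls carried is not stated in the labels, and nothing there says that replicates were different animals. The p-values therefore measure only the spread between these libraries, which may be technical. For tests of single genes that spread is mostly pooled over genes.

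Eukaryotic initiation begins when a small ribosomal subunit carrying initiator tRNA, eIF2, eIF1, eIF1A, eIF5 and eIF3 is recruited to a capped mRNA by the eIF4 factors and scans to a start codon. eIF3 is the large multi-subunit scaffold of that complex. The eIF4 factors bind the cap (eIF4E), bridge to the ribosome (eIF4G) and unwind the leader (eIF4A with eIF4B and eIF4H). After subunit joining, eEF1 delivers aminoacyl-tRNA and eEF2 moves the ribosome along the message. Release factors free the chain at the stop codon, and ABCE1 splits the ribosome for another round. The comparison of Eif5 cKO with control testes asked whether footprints on the genes of these other factors differed when Eif5, the factor that triggers GTP hydrolysis by eIF2 during scanning, was deleted in germ cells.

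Each library held 2225964 to 2934609 reads, and the values below are reads divided by a library factor, as deposited. Eif5 itself had values of 173 and 266 in Eif5 cKO replicates 1 and 2, against 365 and 304 in control replicates 1 and 2. Both Eif5 cKO libraries lay below both controls, but the log2 fold change of -0.63 (SE 0.25) had an adjusted p of 0.319 by limma, after Benjamini-Hochberg adjustment. Markers of meiotic prophase took 0.0660% and 0.0831% of reads in the Eif5 cKO libraries and 0.213% and 0.190% in the controls. All 21 tested markers had a negative sign, and limma called 12 lower at an adjusted p under 0.05, beside 0.604% of all genes. Of the 24 markers in the table, Spo11, which makes the breaks of meiotic recombination, had 0 reads in both Eif5 cKO libraries and 3 and 7 reads in the controls, too few to be tested. Sertoli cell markers took 4.09% and 3.10% of reads in the Eif5 cKO libraries and 2.38% and 3.09% in the controls. Most of these reads in every library fell on Clu. Its values were 70687 and 48370.5 in Eif5 cKO and 35567.6 and 52646.1 in control, with overlap. Of 20 tested Sertoli cell markers, 18 had a positive and 2 a negative sign, and limma called 1 higher, beside 0.0744% of all genes. From footprints of whole testis alone, fewer cells of a type, less RNA per cell and fewer ribosomes per RNA cannot be told apart. The part of these shifts in the results below was not tested.

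With the deposited library factors, none of the translation factor genes passed the test. limma on log2(value + 1), with Benjamini-Hochberg adjustment over 12095 genes and a threshold of 0.05, called 0 of the 36 members in either direction, where it called 82 of all genes tested (0.678%). Of these, 73 fell (0.604%) and 9 rose (0.0744%). edgeR's quasi-likelihood test, DESeq2 and limma-voom on the recovered reads also called 0 of 36, where they called 0.761%, 0.704% and 0.827% of all genes. No member passed in limma with a pseudocount of 0.5 (0.661% of all genes) or 4 (0.777%), without a filter (0.601%), with at least 50 reads in 2 libraries (0.910%), with TMM scaling (0.711%) or with the replicate number as a block (0.827%). At an unadjusted p under 0.05, limma found 3 of 36 members (Eif3e, Eif4a1 and Eef1d), and 10.6% of all genes. Without the first control library 10 genes were called (0.0827%), without the second 20 (0.165%), and without Eif5 cKO replicate 1 there were 127 (1.05%). Without Eif5 cKO replicate 2 there were 346 (2.86%, with 2.02% lower in Eif5 cKO), and Eif3e, with a lower value in Eif5 cKO, was the only member called when any 1 library was left out.

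The 36 members had a median log2 fold change of -0.16, beside 0.003 over all genes tested, with 20 negative and 16 positive signs (49.7% of all genes had a negative sign). Leaving out control replicate 1 brought the members' median to -0.070, and leaving out Eif5 cKO replicate 2 to -0.092. Both Eif5 cKO libraries lay below both controls for 12 of the 36, and above both for 4. Over all genes tested the groups failed to overlap in these ways for 20.9% and 20.0%. With the deposited library factors, the 95% interval of the fold change lay within 1 log2 unit of 0 for 31 of 36 members. The same held for 47.1% of all genes, which were not matched to the members in reads. Such an interval leaves out a 2-fold difference either way under those factors only, as it holds no uncertainty of scaling. The members outside that limit were Eif3e, Eif4a1, Eif4g3, Mcts1 and Eef1g, of which the last had 22 to 41 reads a library. Together the members took 0.559% and 0.577% of reads in the Eif5 cKO libraries, against 0.709% and 0.575% in the controls. The groups overlapped, because control replicate 2 lay between the Eif5 cKO libraries.

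**Figure D1:**
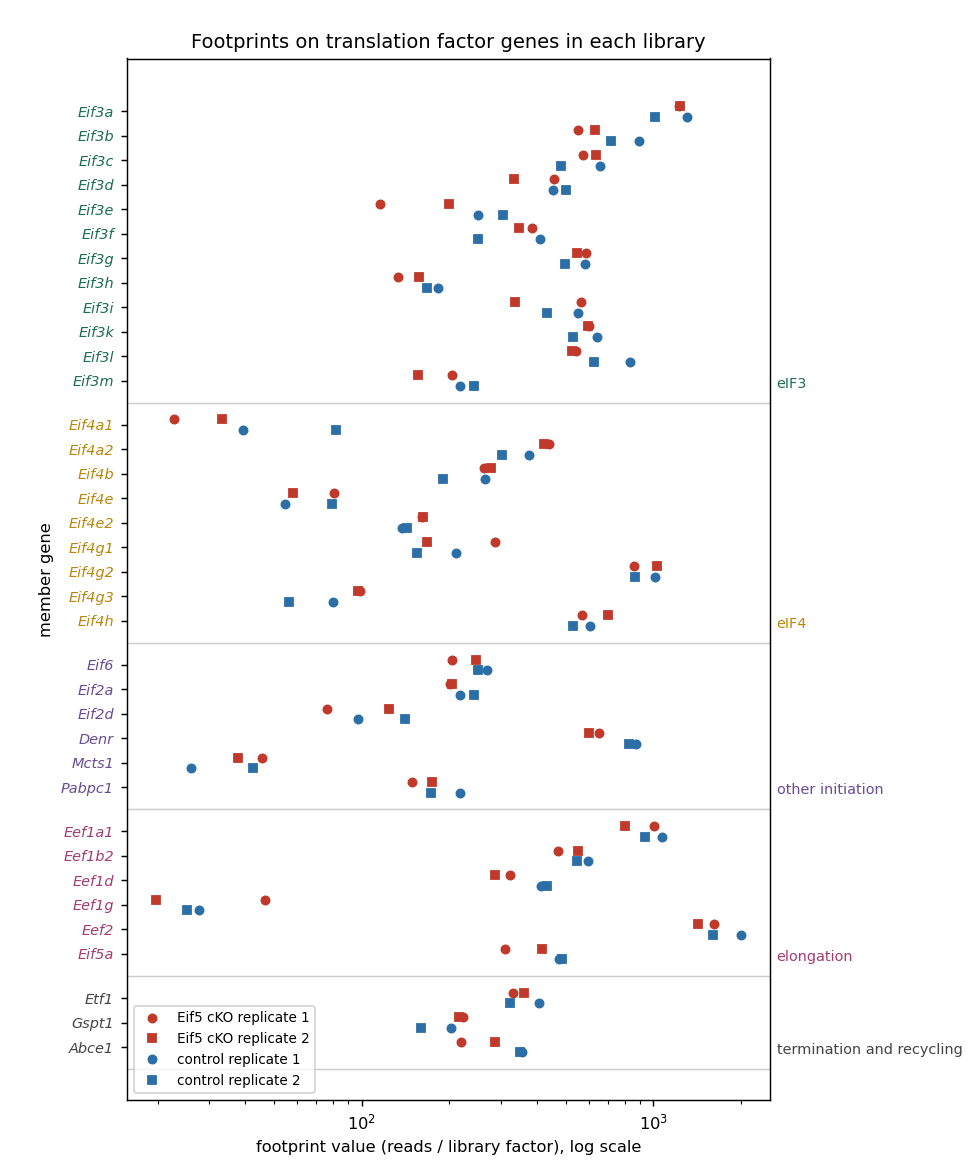
Footprint value (reads divided by the library factor, log scale) of each of the 36 member genes in each library, with Eif5 cKO in red drawn above control in blue, and circles and squares for replicates 1 and 2. The values run from 19.7 (Eef1g) to 1997 (Eef2), and the colours separate for 16 genes.

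The eIF3 genes had fold changes of both signs with the deposited library factors, and differences between subunits were not tested. Their 12 measured subunits had a median log2 fold change of -0.22, with 7 negative and 5 positive signs and 0 calls. Eif5 cKO lay below control without overlap for 5 of them (Eif3b, Eif3e, Eif3h, Eif3l and Eif3m), and for 20.9% of all genes tested. Leaving out control replicate 1 gave an eIF3 median of -0.10, and leaving out Eif5 cKO replicate 2 gave -0.019. Eif3e had the smallest p of any member. Its gene (chromosome 15, 43250040 to 43282736, GRCm38) encodes a subunit of the octameric core of eIF3 that, in human cells, contacts eIF4G. It had values of 116 and 199 in Eif5 cKO and 251 and 304 in control. The Eif5 cKO libraries lay below both controls and also differed clearly from each other. On the log2 scale Eif5 cKO over control was -0.86 (SE 0.27, 95% interval -1.40 to -0.32), with an adjusted p of 0.153 by limma with Benjamini-Hochberg adjustment. Without Eif5 cKO replicate 2 it was -1.25 with an adjusted p of 0.00630 by limma, and without Eif5 cKO replicate 1 it was -0.47 with an adjusted p of 0.642 by limma. A processed copy listed under the older name of the gene, Eif3s6-ps1, held 9.09 and 0 in Eif5 cKO and 0 and 2.30 in control, far fewer than Eif3e.

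With the deposited factors, the other core subunits also had fold changes of both signs. Eif3l had 544 and 527 in Eif5 cKO, against 831 and 626 in control. It forms a pair with Eif3k at the edge of the core, and Eif3k had 602 and 599 in Eif5 cKO, against 639 and 529 in control. Eif3l lay below control without overlap (log2 fold change -0.43, SE 0.23), while the Eif3k values of Eif5 cKO lay between those of the controls (0.05, SE 0.22). Eif3m had 203 and 156 in Eif5 cKO and 218 and 243 in control (-0.37, SE 0.26). Eif3h had 133 and 157 in Eif5 cKO and 183 and 168 in control (-0.28, SE 0.27). In both genes every Eif5 cKO value was below every control value, and the adjusted p was 0.651 for Eif3m and 0.767 for Eif3h by limma. Eif3a, the largest subunit and the backbone of the complex, had 1220 and 1236 in Eif5 cKO and 1300 and 1017 in control (0.10, SE 0.23). Eif3c, its partner in the core, had 574 and 638 in Eif5 cKO and 658 and 482 in control (0.10, SE 0.23). Eif3f had 384 and 345 in Eif5 cKO and 408 and 251 in control (0.18, SE 0.25), the highest fold change of the eIF3 genes. In these 3 genes the Eif5 cKO values lay inside the range of the controls.

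Of the subunits outside the core, only Eif3b had groups that did not overlap. Eif3b, the scaffold of the module with Eif3g and Eif3i that binds near the mRNA entry channel, had 551 and 631 in Eif5 cKO and 894 and 716 in control. The log2 fold change was -0.44 (SE 0.23), with a 95% interval of -0.90 to 0.02. Eif3g had 588 and 547 in Eif5 cKO and 581 and 497 in control (0.08, SE 0.22). Eif3i had 566 and 336 in Eif5 cKO and 551 and 433 in control (-0.16, SE 0.24). The Eif3i libraries of Eif5 cKO fell on either side of the controls. Eif3d, the peripheral subunit with cap-binding activity of its own in human cells, had 456 and 334 in Eif5 cKO and 453 and 502 in control (-0.29, SE 0.23). By module, the median log2 fold change was -0.11 over the 8 core subunits and -0.16 over Eif3b, Eif3g and Eif3i.

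The share of each subunit in the eIF3 reads of a library does not depend on how libraries are scaled. Eif3e made up 1.95% and 3.49% of the eIF3 reads in Eif5 cKO and 3.61% and 5.27% in control. Eif3b made up 9.28% and 11.1% in Eif5 cKO and 12.8% and 12.4% in control, and Eif3l 9.17% and 9.23% in Eif5 cKO and 11.9% and 10.8% in control. These 3 subunits had lower shares in both Eif5 cKO libraries. Eif3a made up 20.6% and 21.7% of the eIF3 reads in Eif5 cKO and 18.7% and 17.6% in control. Its share was higher in both Eif5 cKO libraries, as were those of Eif3c, Eif3f, Eif3g and Eif3k. So the groups did not overlap for 8 of 12 subunits (3 lower, 5 higher). When all genes tested were divided by the eIF3 reads in the same way, the groups did not overlap for 39.7%. The shares sum to the same total, so a lower share of some subunits makes those of others higher, and no test was made.

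**Figure D2:**
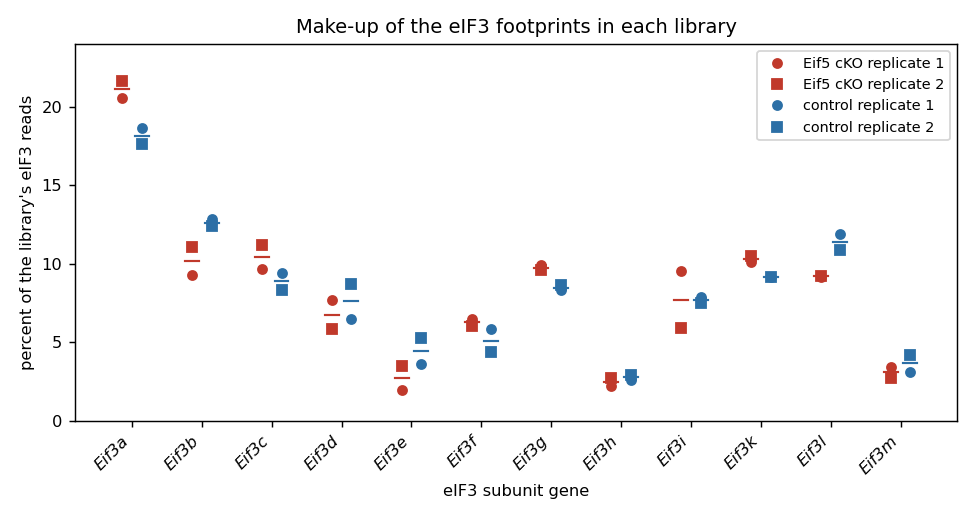
Percent of each library's eIF3 reads that fell on each of the 12 measured subunit genes, with Eif5 cKO (red) left of control (blue) and short lines at the group means. Eif3e, Eif3b and Eif3l are lower in both Eif5 cKO libraries, and Eif3a is higher at 20.6% and 21.7%, against 18.7% and 17.6% in control.

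Many mRNAs of translation factors begin with a pyrimidine tract (the TOP motif) through which mTORC1 and LARP1 control them as a group. A run of at least 7 bases, each C or T and the first a C, was searched on the coding strand from 10 bases before to 50 bases after the annotated RefSeq start (GRCm38.p6). It was present for 11 of 27 tested members with a RefSeq promoter sequence (40.7%) and for 27.7% of all 8970 tested genes with one. Over all 32851 windows it was present in 25.1%. The 30 bases around the run are shown for 3 eIF3 genes, because such a run was found in genes whose fold changes had opposite signs with all libraries. Capitals mark the run.
Eif3f, chr7:108934403-108934432, plus strand: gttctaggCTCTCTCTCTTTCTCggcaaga
Eif3k, chr7:28981854-28981883, minus strand: tgaaagcgCCTTTCCCTTTgccttccttgt
Eif3l, chr15:79075219-79075248, plus strand: ttcttccgCTCTCTCCCacgggcttctgga

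The run started 4 bases before the annotated start in Eif3f, and at bases 14 and 5 from it in Eif3k and Eif3l. The log2 fold changes were 0.18 for Eif3f, 0.05 for Eif3k and -0.43 for Eif3l. Without control replicate 2 all were negative, at -0.16 for Eif3f, -0.089 for Eif3k and -0.63 for Eif3l. Of the members with a promoter sequence, those with the run had a median log2 fold change of 0.05 and those without it -0.04. The 9 members with no promoter sequence in the table are left out of both, and their median was -0.20, with 7 negative signs. Over all genes with a sequence the medians were 0.02 with the run and -0.01 without it. A match of letters is not a functional site, and annotated starts can lie some bases from those used in testis.

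Of the 9 eIF4 genes, 8 had a positive sign and 1 a negative sign, and 0 passed in either direction. Their median log2 fold change was 0.21 with the deposited library factors, and -0.23 when libraries were scaled on Sertoli cell markers, a scaling that shifts every gene alike. Relative to the median of all genes it was 0.20 under both scalings, and 0.070 without control replicate 2. Eif4a2 and Eif4a1 encode closely related forms of the helicase that unwinds mRNA leaders. Eif4a2 had 439 and 421 in Eif5 cKO and 375 and 303 in control, above both controls (log2 fold change 0.35, SE 0.23). Eif4a1 (chromosome 11, 69666936 to 69672423) had 22.7 and 33.2 in Eif5 cKO and 39.2 and 81.5 in control. Its groups did not overlap either, in the opposite direction, with a log2 fold change of -1.02 (SE 0.46, 95% interval -1.94 to -0.09) and an adjusted p of 0.406 by limma with Benjamini-Hochberg adjustment. The log2 fold change was -0.50 without control replicate 2 and -1.53 without control replicate 1. The lowest library had 20 reads of Eif4a1. Reads shared between such close copies, or with processed copies elsewhere in the genome, could have been split or dropped in the counting, whose setting for them is not stated, so both values are uncertain. The same holds for members with a gene on the same stretch of genome, since no strand setting is stated: Eif4a2 (Rfc4), Eif3m (Ccdc73), Eif2a (Serp1), Eif2d (Rassf5), Eef1d (Tigd5), Eif5a (Gps2), Gspt1 (2610020C07Rik and LOC115488671), Abce1 (Anapc10) and the members that span small RNA genes.

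Of the scaffold proteins, Eif4g3 had 98.8 and 96.9 in Eif5 cKO and 80.0 and 56.2 in control. Loss-of-function mutation of this gene arrests spermatocytes in meiosis in mice. It had the highest fold change of all members, with no overlap (log2 fold change 0.54, SE 0.33, 95% interval -0.13 to 1.21), and an adjusted p of 0.598 by limma. Without control replicate 2 it was 0.29, below Mcts1 at 0.64 under the same omission. Eif4g1, the main scaffold, had 287 and 168 in Eif5 cKO and 211 and 155 in control (0.28, SE 0.27). Eif4g2, a relative that lacks the cap-binding protein's docking site, had 861 and 1029 in Eif5 cKO and 1010 and 867 in control (0.01, SE 0.23). Both overlapped between groups. With the deposited factors, the 95% interval of Eif4g2, -0.45 to 0.47, was the only one among the members within 0.5 log2 units of 0.

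Of the cap-binding genes, Eif4e had 80.7 and 58.3 in Eif5 cKO and 54.7 and 79.2 in control (log2 fold change 0.06, SE 0.36). Eif4e2, a form linked to translational repression, had 161 and 162 in Eif5 cKO and 137 and 143 in control (0.21, SE 0.27). The Eif4e2 libraries of a group were close to each other and did not overlap between groups, and the adjusted p was 0.844 by limma. The helicase cofactors overlapped: Eif4b had 264 and 278 in Eif5 cKO and 265 and 191 in control (0.27, SE 0.25), and Eif4h had 568 and 700 in Eif5 cKO and 608 and 530 in control (0.15, SE 0.23).

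**Figure D3:**
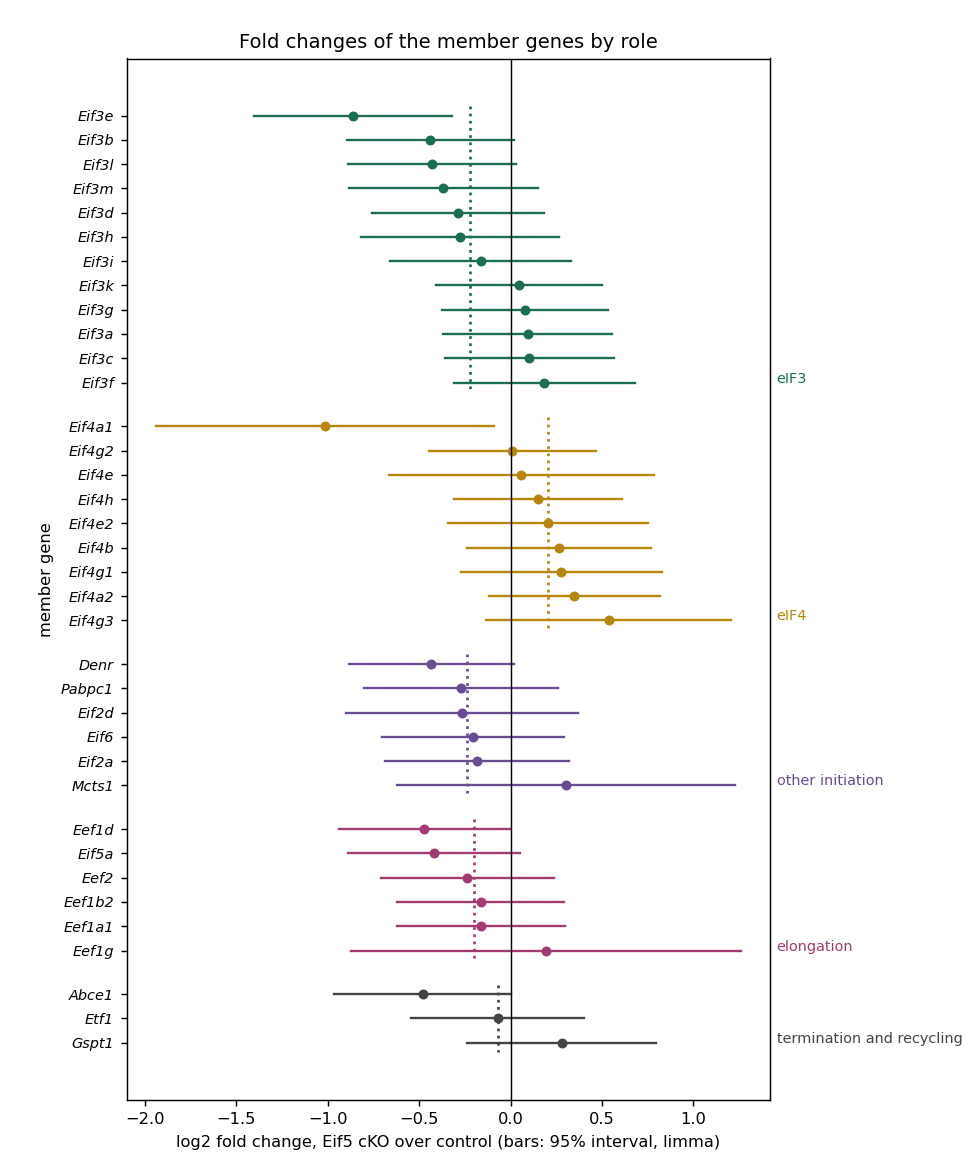
Log2 fold change of each member gene, Eif5 cKO over control, with 95% intervals from limma (2 libraries a group), ordered within each role, and dotted lines at the median of each role. Only the intervals of Eif3e, Eif4a1 and Eef1d leave out 0 before adjustment, and the eIF4 median (0.21) lies on the other side of 0 from the other 4, and at -0.23 when scaled on Sertoli cell markers, 0.20 above the median of all genes either way.

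Among the other initiation factors, 5 of 6 had a negative sign, the median log2 fold change was -0.24, and 0 passed. The median was -0.11 without Eif5 cKO replicate 1 and -0.36 without Eif5 cKO replicate 2. Denr and Mcts1 encode the partners of one complex that recycles small subunits and promotes reinitiation after upstream reading frames. Denr had 651 and 604 in Eif5 cKO and 872 and 822 in control. Each group was tight and they did not overlap (log2 fold change -0.43, SE 0.22, 95% interval -0.88 to 0.02), yet the adjusted p was 0.497 by limma with Benjamini-Hochberg adjustment. Mcts1 had 45.4 and 37.7 in Eif5 cKO and 26.1 and 42.5 in control, with overlap (0.30, SE 0.46). Eif2d, a single protein with domains like those of that complex, had 76.1 and 124 in Eif5 cKO and 97.1 and 141 in control, also with overlap (-0.27, SE 0.31).

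Eif2a, which can deliver initiator tRNA without eIF2 on some messages, had 201 and 204 in Eif5 cKO and 218 and 242 in control (log2 fold change -0.18, SE 0.25). Eif6, which keeps the large subunit from joining too early, had 204 and 248 in Eif5 cKO and 268 and 250 in control (-0.20, SE 0.25). In both genes Eif5 cKO lay below control without overlap, by less than the standard error. Pabpc1, the poly(A)-binding protein that joins the mRNA tail to eIF4G, had 149 and 174 in Eif5 cKO and 218 and 173 in control (-0.27, SE 0.26), with overlap.

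The elongation factors had a median log2 fold change of -0.20, with 5 of 6 signs negative and 0 calls. The median was -0.085 without control replicate 1, -0.33 without control replicate 2 and also -0.33 without Eif5 cKO replicate 1. Eef1d, an exchange factor subunit that reloads eEF1A with GTP, lies on chromosome 15 at 75894796 to 75909784. It had 324 and 286 in Eif5 cKO and 412 and 433 in control. The groups were separate, with a log2 fold change of -0.47 (SE 0.23, 95% interval -0.94 to -0.003) and an adjusted p of 0.467 by limma. Its partner Eef1b2 had 471 and 553 in Eif5 cKO and 599 and 545 in control (-0.16, SE 0.23), and the third subunit gene, Eef1g, had 46.6 and 19.7 in Eif5 cKO and 27.7 and 25.3 in control (0.19, SE 0.53). Both overlapped, and Eef1g had the widest interval of the members, -0.87 to 1.26.

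Eef1a1 and Eef2 overlapped between the groups. Eef1a1, which carries aminoacyl-tRNA to the ribosome and has many processed copies, had 1008 and 800 in Eif5 cKO and 1073 and 939 in control (log2 fold change -0.16, SE 0.23). Eef2, the translocase, had 1620 and 1420 in Eif5 cKO and 1997 and 1598 in control (-0.24, SE 0.23). Eef2 also spans the small nucleolar RNA gene Snord37, whose row had 2210 and 3224 in Eif5 cKO and 1951 and 1975 in control (0.44, SE 0.25, adjusted p of 0.550 by limma), and such reads need not be footprints. Eif5a, named as an initiation factor but known to relieve stalled elongating ribosomes through its hypusine residue, had 311 and 415 in Eif5 cKO and 475 and 487 in control. It lay below control without overlap (-0.42, SE 0.23, adjusted p of 0.541 by limma).

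In termination and recycling, 0 of 3 genes passed, and the median log2 fold change was -0.07. It was 0.090 without control replicate 1 and -0.23 without control replicate 2. Abce1, the ATPase that splits ribosomes after release, is on chromosome 8 at 79683442 to 79711740. It had 219 and 287 in Eif5 cKO and 353 and 348 in control, without overlap (log2 fold change -0.48, SE 0.24, 95% interval -0.97 to 0.005, adjusted p of 0.475 by limma). Etf1, the release factor that reads stop codons, had 329 and 361 in Eif5 cKO and 405 and 324 in control (-0.07, SE 0.23). Gspt1, the GTPase that works with it, had 223 and 215 in Eif5 cKO and 203 and 160 in control, above both controls (0.28, SE 0.26). The 3 genes thus had 1 group order each: Abce1 below control, Gspt1 above control and Etf1 overlapping.

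**Figure D4:**
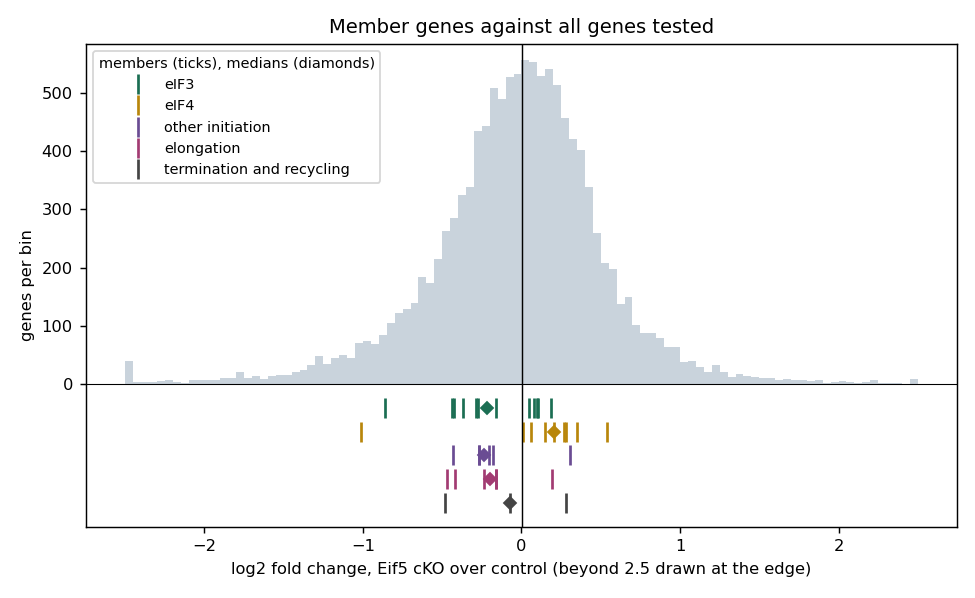
Histogram of the log2 fold change, Eif5 cKO over control, of all 12095 genes tested (grey, with the median as a line at 0.003 and outlying genes drawn at the edges of the axis), and below it the 36 members as ticks and the median of each role as a diamond. The members lie between -1.02 and 0.54, within the range of all genes (-4.53 to 4.05).

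Ratios between related genes within a library were compared because they do not depend on scaling. Of 8 pairs, 6 had at least 10 reads of both genes in every library, and Pabpc4 over Pabpc1 and Eef1a2 over Eef1a1 did not, since Pabpc4 and Eef1a2 had as few as 2 reads. The log2 ratio of Eif4a2 to Eif4a1 reads was 4.20 and 3.63 in Eif5 cKO and 3.23 and 1.88 in control. It was higher in both Eif5 cKO libraries, by 1.36 on average, with the mapping limit given above for this pair. The difference was 0.69 without control replicate 2 and 2.04 without control replicate 1. The log2 ratio of Eif5a2, a second eIF5A gene, to Eif5a was -3.58 and -2.92 in Eif5 cKO and -2.39 and -2.41 in control. It was lower in both Eif5 cKO libraries (difference -0.85, or -0.52 without Eif5 cKO replicate 1), and in the deposited values Eif5a2 had 25.0 and 53.8 in Eif5 cKO and 89.8 and 90.7 in control. For both pairs the exact two-sided permutation test gave p = 0.333, the smallest that 2 against 2 libraries allow. The other 4 pairs overlapped, with differences of 0.15 for Eif4e2 over Eif4e, -0.27 for Eif4g2 over Eif4g1, 0.26 for Eif4g3 over Eif4g1 and 0.01 for Gspt2 over Gspt1 (exact permutation p of 0.667 for the first and 1 for the rest). After Benjamini-Hochberg adjustment over the 6 pairs every exact p was 1.

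**Figure D5:**
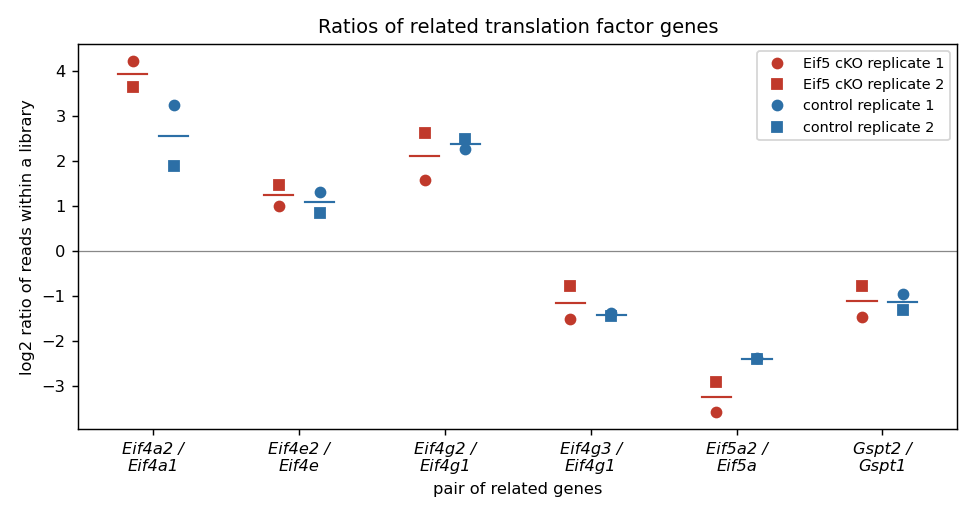
Log2 ratio of the reads of 2 related genes within each library for the 6 pairs with enough reads, with Eif5 cKO (red) left of control (blue) and lines at the group means. The groups separate for Eif4a2 over Eif4a1 and for Eif5a2 over Eif5a only.

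The wider translation machinery was described from a list of 56 other genes (further initiation factors, paralogs, and regulators and modifying enzymes of the members). Of these, 44 were tested and 0 passed in either direction, and the signs were 22 positive and 22 negative, with a median log2 fold change of -0.004. At an unadjusted p under 0.05 limma found 10 of the 44 (22.7%), beside 10.6% of all genes. Eif5, the deleted gene itself, is on the list and among those 10. The list was chosen with earlier results of these data known, so the 2 shares are given as description only. Those with the smallest p on the negative side were Paip2b, a repressor of the poly(A)-binding protein, with 120 and 181 in Eif5 cKO and 256 and 290 in control (-0.88, SE 0.26), Eif5a2 (-1.27, SE 0.39) and Dohh, the hydroxylase that completes hypusine on eIF5A, with 51.1 and 78.1 in Eif5 cKO and 141 and 116 in control (-1.01, SE 0.32). Paip2b moved to -1.17, Eif5a2 to -1.81 and Dohh to -1.31 when Eif5 cKO replicate 2 was left out. When Eif5 cKO replicate 1 was left out instead, Paip2b moved to -0.59, Eif5a2 to -0.73 and Dohh to -0.71. On the positive side Eif2s3x, the X-linked eIF2 gamma subunit, had 53.4 and 32.3 in Eif5 cKO and 34.3 and 4.59 in control (1.60, SE 0.64). Control replicate 2 held 4 reads of Eif2s3x, and without that library the log2 fold change was 0.27. The others were Mcts2, a retrogene of Mcts1 (1.02, SE 0.41, and 0.65 without control replicate 2), and Pelo, a ribosome rescue factor (0.86, SE 0.40, and 0.43 without control replicate 2). The adjusted p of these 6 lay between 0.124 and 0.429 by limma. All had the Eif5 cKO libraries on one side of both controls except Eif2s3x, for which control replicate 1 lay between them. Eif2s3y, the Y-linked form of Eif2s3x, had the opposite sign (-0.89, SE 0.29). It had 81.8 and 181 in Eif5 cKO and 242 and 211 in control. Reads shared between Eif2s3x and Eif2s3y, or between Mcts1 and Mcts2, could also have been split or dropped in the counting.

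The number of members that passed depended on how libraries were scaled. When each library was scaled on the Sertoli list, in place of the deposited factors, the median of all genes moved to -0.43, and 899 genes were called, 896 lower and 3 higher (7.43% of all genes, 7.41% lower), against 73 lower and 9 higher with the deposited factors. Under that scaling 9 of 36 members passed, all with negative signs: Eif3b, Eif3e, Eif3l, Eif4a1, Denr, Eef1d, Eef2, Eif5a and Abce1. The median log2 fold change was then -0.60 for all 36 members, or -0.17 relative to all genes, beside -0.16 with the deposited factors. Sertoli cell markers differed between the groups themselves, as given above, and what part that has in these calls was not tested.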

How the data were processed

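Ribosome footprint libraries of day 10 testes were analysed from the authors' deposited table. Its columns are named raw counts, but the authors deposited a normalized signal. Dividing each column by its smallest positive value, taken as a single read, gave whole reads for 100% of values (relative tolerance 1e-06). The library factors so found equalled the median-of-ratios size factors of the recovered reads. Because the deposited values were divided by these factors, limma was the main test, and count tests on the recovered reads were alternatives. Bowtie2, STAR, featureCounts and GRCm38 are named in the submitters' processing notes, without versions or settings. 0 columns belonged to other samples.

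limma 3.58.1 (R 4.3.3, trend) was fitted to log2(value + 1) on group alone, over the 12095 genes that pass edgeR 4.0.16's default filter (minimum count 10), with Benjamini-Hochberg adjustment over all of them. All 36 members passed the filter. A fold change on this scale understates that of low genes. With 2 against 2 libraries the calls rest on pooled variance (2 residual and 37.0 prior degrees of freedom). The fits were also run on simulated reads with known changes, and the outcome is not reported here. Alternatives were edgeR, DESeq2 1.42.0 and limma-voom on recovered reads, other pseudocounts, filters and scalings, each library left out, and the replicate number as a block. Members, role groups and lists were chosen with earlier results of these data known. The rule for members given by library took the 4 smallest p and the 2 highest and 2 lowest fold changes of each role, and the text gives the others too. Of other translation genes, the 3 with the smallest p in each direction are named. Names and positions came from RefSeq (GRCm38.p6), which matched all 37 symbols. Levels of different genes were not compared, since no coding lengths were used here. Start sequences of the other members with a run are not reported here.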

Additional observations from a re-analysis of the deposited data

How the results depend on the processing

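With edgeR, DESeq2, limma-voom, pseudocounts of 0.5 and 4, no filter, the filter of 50 reads in 2 libraries, TMM scaling and the replicate block, every member tested kept its sign and 0 were called (33 members passed the stricter filter). The replicate block gave 100 calls over all genes and an adjusted p of 0.155 for Eif3e by limma. Same-numbered libraries did not deviate together (correlation -0.05 over 12095 genes), so the shared numbers were not taken as pairs. Pseudocounts of 0.5 and 4 reads moved the ratios of related genes by less than 1 replicate SD. With a library left out, Eif4a2 over Eif4a1 ranged from 0.69 to 2.04 and Eif5a2 over Eif5a from -1.18 to -0.52, and the other 4 pairs moved too: Eif4e2 over Eif4e, Eif4g2 over Eif4g1, Eif4g3 over Eif4g1 and Gspt2 over Gspt1 each took both signs.

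Scaling on the Sertoli list gave 899 calls over all genes, 9 members lower and 7 other translation genes lower. The median was -0.60 for the members, -0.66 for eIF3, -0.23 for eIF4, -0.67 for other initiation, -0.64 for elongation and -0.51 for termination and recycling. Signs turned for Eif3a (-0.34), Eif3c (-0.34), Eif3f (-0.25), Eif3g (-0.36), Eif3k (-0.39), Eif4a2 (-0.089), Eif4b (-0.17), Eif4e (-0.37), Eif4e2 (-0.23), Eif4g1 (-0.16), Eif4g2 (-0.43), Eif4h (-0.29), Mcts1 (-0.12), Eef1g (-0.23) and Gspt1 (-0.16). By construction this scaling shifts every gene alike.

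With each library left out in turn, calls ranged from 10 to 346 over all genes, from 0 to 1 among members (Eif3e, without Eif5 cKO replicate 2) and from 0 to 4 among other translation genes. Medians ranged from -0.19 to -0.070 for the members, -0.25 to -0.019 for eIF3, 0.055 to 0.25 for eIF4, -0.36 to -0.11 for other initiation, -0.33 to -0.085 for elongation and -0.23 to 0.090 for termination and recycling. The log2 fold change moved by over 1.5 times for 33 of 36 members when 1 or another library was left out, and turned sign for 14. Ranges that cross 0 were those of Eif3a (-0.082 to 0.27), Eif3c (-0.12 to 0.33), Eif3f (-0.16 to 0.53), Eif3g (-0.034 to 0.19), Eif3i (-0.54 to 0.21), Eif3k (-0.089 to 0.18), Eif4e (-0.20 to 0.32), Eif4g1 (-0.11 to 0.66), Eif4g2 (-0.12 to 0.14), Eif2d (-0.62 to 0.080), Mcts1 (-0.036 to 0.64), Eef1a1 (-0.33 to 0.0055), Eef1g (-0.41 to 0.79) and Etf1 (-0.23 to 0.090). The cause was not tested.

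Library totals were also taken without mitochondrial transcripts and those of ribosomal proteins. The members then took a mean of 0.588% of reads in Eif5 cKO (SD 0.013%) and 0.670% in control (SD 0.096%). For eIF3 the means were 0.236% in Eif5 cKO (SD 0.00098%) and 0.269% in control (SD 0.047%). For elongation they were 0.147% in Eif5 cKO (SD 0.0035%) and 0.182% in control (SD 0.024%). Other initiation had 0.055% in Eif5 cKO and 0.071% in control, and termination and recycling 0.033% and 0.038%. The eIF4 mean went the other way, with 0.116% in Eif5 cKO (SD 0.0085%) and 0.110% in control (SD 0.016%). The 95% intervals given for each gene show the precision at this depth and number of libraries, with the deposited factors taken as exact. Footprints per codon, which were planned, were not run because no coding lengths were used here.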

Other observations

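The genes of the hypusine route, in which Dhps and Dohh modify a lysine of the eIF5A proteins, were picked out after their values were seen. Dhps, which makes the first step, had 112 and 118 in Eif5 cKO and 149 and 150 in control (log2 fold change -0.38, SE 0.28, adjusted p of 0.674 by limma). Dohh, which makes the second, had 51.1 and 78.1 in Eif5 cKO and 141 and 116 in control (adjusted p of 0.173 by limma). Together with their substrates Eif5a and Eif5a2, all 4 genes of the route had both Eif5 cKO libraries below both controls, as did 20.9% of all genes tested. None of the 4 passed the test, and how germ cell content bears on them was not tested.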
